A study of Rattus norvegicus with 16 samples.

Results

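The 200 autosomal genes whose mRNA level differed most between germ cell samples of rats on the same diet were described. They were chosen by measured values: genes on numbered chromosomes that averaged 50 counts or more in the 8 mRNA libraries were ranked by the SD of log2(CPM + 0.5) within diet. CPM is the count per 1000000 counts of a library, and the SD within diet is the root of the mean of the variances on both diets. Of 26560 listed genes, 11392 passed the chromosome and count criteria, and 11294 remained once the 100 genes of highest mean CPM in the whole table were left out. The 200 are 1.77% of these 11294 and are called the variable genes below. None of the abundant genes left out had an SD as large as theirs. Because the SD within diet chose them, their spread between rats is a description and was not tested.

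Germ cells (GCs) were sorted by eGFP fluorescence from the dissociated testes of male Sprague-Dawley rats that carry a germ cell eGFP transgene (GCS-eGFP). From weaning to 19 weeks of age, 4 rats ate a high fat diet (HFD) with 40% of calories from fat by the sample labels, and 4 ate a control diet (CD) with 10%. The study's paper gives a higher share of fat for the HFD than the labels do. All rats of both diets carried the transgene, and each gave 1 mRNA library, named here by diet and replicate number. A small RNA library is labelled with each of the same diets and replicate numbers, 16 libraries in all. The study describes the line as semi-inbred, so that rats of 1 diet are not genetic copies of each other, and genotypes were not analysed here. The count files do not pair identifiers with gene symbols, and the reference tables matched none of them. Germ cell and somatic marker genes were therefore not looked up, and no variable gene is named by symbol or given a function.

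Male germ cells pass from mitotic spermatogonia through meiotic spermatocytes to haploid spermatids, and large sets of genes are switched on and off along this path. A sort on a marker shared by germ cells takes these stages together, so that the level of a gene in the sorted pool depends both on the cells present and on the RNA each holds. Fewer cells of a type and less RNA per cell cannot be told apart in such bulk libraries. Genes that lie close together on a chromosome can share regulatory sequence and tend to be inherited together.

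The 8 libraries held between 38633043 and 62038805 counts, so that 3 counts, taken as the floor, were between 0.0484 and 0.0777 CPM. This floor covers counting error only. CD replicates 1 and 4 stood apart from the other libraries over all 11294 genes. Their mean absolute deviation from the CD mean was 0.225 and 0.263 on the log2 scale, against 0.116 to 0.149 in the other 6 libraries. CPM was scaled by column totals alone. The TMM factors of edgeR, which adjust these totals for the make-up of a library, were lowest in CD replicate 1 (0.856) and highest in CD replicate 4 (1.088). The part of these differences between libraries in the values below was not tested, and results that change without a library are given with that change.

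Among the variable genes the SD within diet ran from 0.473 to 2.00 with a median of 0.568, against a median of 0.206 over the 11294 genes. The highest CPM of a variable gene was a median of 4.02 times its lowest, and 101 of the 200 spanned more than 4-fold. In 23 the span was more than 10-fold. Over all 11294 genes the median span was 1.57-fold. The variable genes were less abundant, with a median mean count of 152.25 against 804.625. Counting error was nevertheless a small part of their spread. It accounted for a median of 2.50% of the variance within diet and for 8.29% at most. The 3 genes just inside the limit were ENSRNOG00000018087, ENSRNOG00000019673 and ENSRNOG00000015442, with SDs of 0.4743, 0.474 and 0.4729. Just outside it were ENSRNOG00000047321, ENSRNOG00000030243 and ENSRNOG00000017882, with 0.4727, 0.4727 and 0.4725. The limit thus cut through a continuous range and marks no break in the values.

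Whether genes that varied on 1 diet also varied on the other was read by choosing on 1 diet alone. This reading was added after the data had been seen. The SDs on both diets also went into the rule, so that the values are a description. The 200 genes with the largest SD among the 4 HFD rats were taken first. The SDs of the CD rats did not enter that ranking, but the count criterion used all 8 libraries. Among the 4 CD rats these 200 genes had a median SD of 0.470, against 0.239 over all 11294 genes. In all, 177 of these 200 were above that median. The 200 chosen on the CD rats had a median SD of 0.373 among the HFD rats, against 0.134 over all genes, and 187 of them were above it. Genes of low count had larger SDs, so that all genes are a low baseline. Among the 4028 genes with a mean count up to 377.938, the upper quartile of the variable genes, the median SD was 0.272 on the CD and 0.189 on the HFD. The lists shared 75 genes, 37.5% of each, where each list holds 1.77% of the genes. That 1.77% is not matched for count, and the overlap was not tested. The SD was larger on the CD than on the HFD in 118 of the 200 variable genes (59%) and in 78.0% of all 11294. CD replicates 1 and 4 are on the CD side of this comparison.

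An on/off profile was defined as a gap of at least 2 on the log2(CPM + 0.5) scale, about 4-fold, between neighbouring values of the 8 sorted rats. It was found in 13 of the 200 variable genes (6.5%) and in no other gene of the 11294. A gap that divides the rats of 1 diet raises the SD that chose the genes, so that nothing is read from the second count. In 5 of the 13 a single rat lay below the gap, in 4 a pair of rats, in 2 there were 3 rats, and in the remaining genes 5 and 6 rats. Rats of both diets lay on the low side in 5 genes. Each of the 8 rats was on the low side in at least 2 of the 13, CD replicate 2 most often with 6.

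The widest gap belonged to ENSRNOG00000037393 (rn5 chromosome 1, 92618354 to 92656646, minus strand). It had 170, 164, 150 and 157 CPM in HFD replicates 1 to 4, and 4.56, 128, 154 and 173 CPM in CD replicates 1 to 4. CD replicate 1 was 28.0-fold below the next lowest rat, while the other 7 lay close together. ENSRNOG00000026336 (chromosome 16, 80677268 to 80697624, plus strand) was likewise low in 1 rat. Its CPM was 6.12, 9.91, 6.42 and 4.72 on the HFD and 8.77, 0.104, 3.37 and 6.56 on the CD. The low value of CD replicate 2 rests on 4 counts.

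A pair of genes that together span 0.499 Mb of chromosome 13 was low in the same pair of rats. ENSRNOG00000002907 (55608313 to 55632417, minus strand) had 20.4, 21.6, 31.3 and 20.8 CPM in the HFD rats and 17.0, 0.440, 0.595 and 35.6 CPM in the CD rats. ENSRNOG00000048096 (55133392 to 55151200, plus strand) had 8.35, 9.93, 13.2 and 9.91 CPM on the HFD and 9.17, 0.207, 0.298 and 13.8 CPM on the CD. In both genes CD replicates 2 and 3 lay about 28-fold or more below every other rat, and the remaining 6 rats formed 1 group. A further gene of this stretch, ENSRNOG00000010204 (57910156 to 57927429, plus strand), was low in the same rats and in HFD replicate 1. It had 0.256, 7.51, 6.62 and 7.45 CPM on the HFD and 4.79, 0.337, 0.242 and 9.08 CPM on the CD. The pair had a diet-centred r of 0.9975 over the 8 rats, and the further gene had r = 0.765 and 0.786 with them. Not every variable gene of the stretch had this profile. ENSRNOG00000005277 (56986605 to 57006799, minus strand), named after its values were seen, lies between the pair and the further gene. It had 1.56, 2.31, 3.07 and 1.09 CPM on the HFD and 1.43, 1.48, 2.46 and 5.71 CPM on the CD. Its r with ENSRNOG00000002907 was 0.483. Of 37 genes within 2 Mb of ENSRNOG00000002907 that were not among the variable genes, 2 (5.41%) had an absolute r of at least 0.8 with it. The share was 5.1% over pairs of a variable gene and another gene on different chromosomes. These correlations have 8 points, from libraries shared by all genes.

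ENSRNOG00000030016 (chromosome 8, 39893678 to 39908364, minus strand) had the largest SD of all, 2.00. Its CPM was 5.79, 13.3, 0 and 12.1 in the HFD rats and 10.2, 4.22, 5.60 and 0.188 in the CD rats. HFD replicate 3 had no count and CD replicate 4 had 8, so that 1 rat of each diet was low. ENSRNOG00000032825 (chromosome 10, 37797860 to 37798207, minus strand), a gene of a single exon part 348 bases long, was low in HFD replicate 1 and CD replicate 4. It had 3.25, 77.3, 41.5 and 76.0 CPM on the HFD and 67.6, 36.7, 40.0 and 3.29 CPM on the CD. A short gene of 1 part can share reads with a near-identical copy elsewhere, which was not tested.

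Other genes were high in a few rats only. ENSRNOG00000017118 (chromosome 1, 171496702 to 171531029, plus strand) had 6.35 CPM in HFD replicate 1 and 9.31 in CD replicate 1, and between 0.298 and 0.777 in the other 6 rats. ENSRNOG00000008412 (chromosome 4, 233105139 to 233123585, plus strand) had 8.94 CPM in HFD replicate 1, 8.84 in CD replicate 3 and 7.31 in CD replicate 4. Its other 5 rats lay between 0.949 and 1.42 CPM. In both genes each diet had rats on either side.

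In 3 further genes 1 rat fell away from the rest. HFD replicate 2 was low in ENSRNOG00000017669 (chromosome 2, 219196513 to 219249842, minus strand), at 2.13 CPM against 11.6 to 16.8 in the other rats. It was also low in ENSRNOG00000050458 (chromosome 2, 43013575 to 43014421, plus strand), at 0.564 CPM against 4.20 to 8.94. These genes lie far apart on the chromosome, and their diet-centred r over the 8 rats was 0.988. This r rests mainly on HFD replicate 2, which lay far below the other rats in both genes. CD replicate 1 was low in ENSRNOG00000004328 (chromosome 7, 95432383 to 95620730, plus strand), at 1.08 CPM against 6.28 to 13.9. ENSRNOG00000050458 and ENSRNOG00000004328 are named because they complete the 13, having been chosen after their values were seen.

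A single on/off profile followed diet in all rats but 1. ENSRNOG00000021560 (chromosome 3, 176475073 to 176512469, plus strand) had 5.48, 3.99, 6.35 and 5.69 CPM in the CD rats. In the HFD rats it had 0.0768, 0.0967, 0.181 and 4.86 CPM, from 3, 6, 8 and 219 counts. HFD replicates 1 to 3 were thus near the floor, and HFD replicate 4 lay within the range of the CD rats. Of the 10 genes with the largest SD, only ENSRNOG00000047312 (chromosome 6, 120528550 to 120549376, minus strand) had no on/off profile. It had 44.6, 357, 242 and 433 CPM on the HFD and 74.5, 492, 236 and 194 CPM on the CD, with replicate 1 lowest on both diets.

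**Figure D1:**
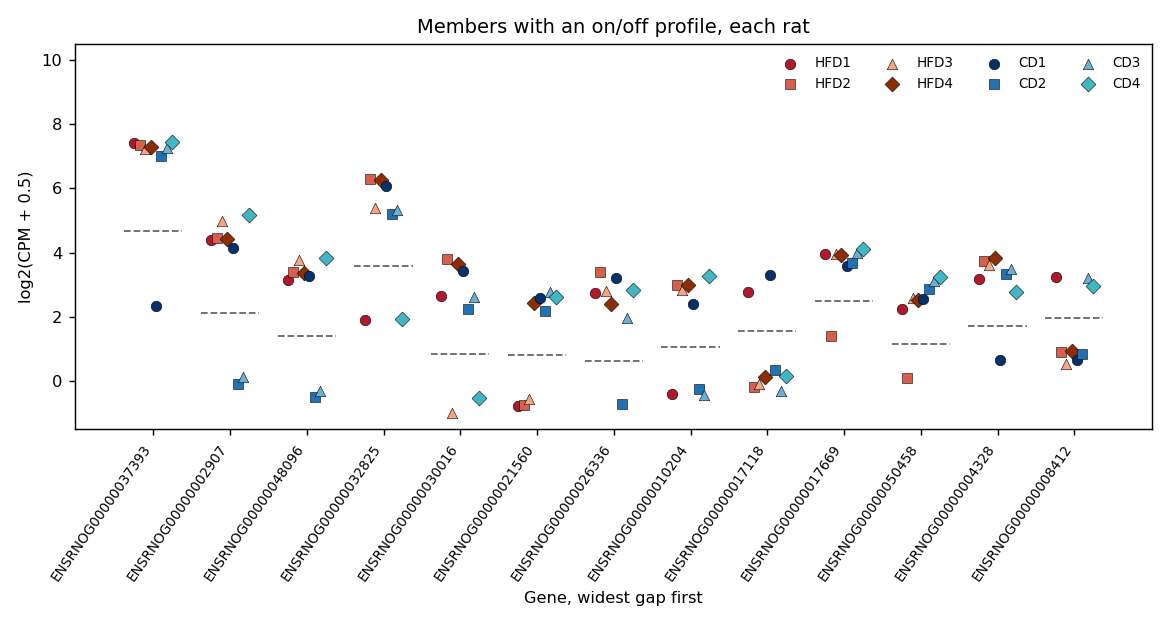
Level of the 13 variable genes with an on/off profile in each of the 8 rats, as log2(CPM + 0.5), with HFD rats in red and brown and CD rats in blue. The dashed line of each gene is the middle of its gap, and different rats lie below it in different genes, from CD replicate 1 alone in ENSRNOG00000037393 to 6 rats in ENSRNOG00000017118.

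The variable genes were not spread evenly over the chromosomes. They made up 4.19% of the genes on chromosome 20 (14 of 334), 3.71% on chromosome 13 (13 of 350) and 3.58% on chromosome 2 (26 of 727). On chromosome 10 the share was 0.498% (5 of 1005), and chromosomes 14 and 18 held 1 each, of 365 and 278 genes. Over all chromosomes it was 1.77%. Genes within 1 Mb of each other were joined into blocks, which gave 22 blocks with 58 of the 200 genes (29%). For comparison, 21.0% of the other 11094 genes had a variable gene within 1 Mb. Of the blocks, 16 held a pair of genes, 4 held 3 genes, 1 held 4 and 1 held 10. No variable gene had annotated exons that overlap those of another.

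The block of 10 lay on chromosome 20, from 5524710 to 7436985, where 53 of the 11294 genes lie. Its gene of largest SD, ENSRNOG00000000830 (5536686 to 5671944, plus strand), had 20.6, 3.63, 2.85 and 19.3 CPM in the HFD rats and 12.1, 14.7, 3.94 and 3.93 CPM in the CD rats. HFD replicates 1 and 4 and CD replicates 1 and 2 were high, the other 4 rats were low, and no rat lay between. The exons of this gene overlap a listed gene on the other strand, ENSRNOG00000000827, and reads of the pair cannot be told apart with a library kit that does not mark strand. ENSRNOG00000031090 (6718907 to 6779286, minus strand), more than 1 Mb further on, had 8.43, 1.56, 1.65 and 8.18 CPM on the HFD and 6.60, 6.13, 1.23 and 1.86 CPM on the CD. ENSRNOG00000030712 (7433433 to 7436985, plus strand), at the far end of the block, had 11.1, 3.69, 3.93 and 11.4 CPM on the HFD and 9.91, 12.1, 3.05 and 5.71 CPM on the CD. The same 4 rats were high in all 3 genes.

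Across the block 8 genes moved with ENSRNOG00000000830, itself included, the others with r between 0.699 and 0.978. All 8 were above the diet mean in HFD replicate 4 and in CD replicates 1 and 2, and 7 were in HFD replicate 1. None of the 8 was above it in HFD replicate 2 or CD replicates 3 and 4, and 1 was in HFD replicate 3. The remaining pair of genes ran the other way, with r of -0.820 and -0.872. ENSRNOG00000033215 (6167759 to 6177326, plus strand) had 29.1, 47.2, 46.3 and 24.5 CPM in the HFD rats and 18.4, 20.7, 50.1 and 54.9 CPM in the CD rats. ENSRNOG00000000826 (5524710 to 5535207, minus strand), named after its values were seen, had 1.54, 2.71, 2.33 and 1.51 CPM on the HFD and 0.830, 0.777, 2.40 and 3.10 CPM on the CD. In both genes the 4 rats that were high in the other 8 genes were the lowest. Of the 45 pairs of genes in the block, 37 had an absolute r of at least 0.8, 24 of them positive and 13 negative. Among pairs of variable genes on different chromosomes, 9.39% had an absolute r of at least 0.8.

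The shared profile did not extend to most genes in between. Of 80 genes within 2 Mb of ENSRNOG00000000830 that were not among the variable genes, 5 (6.25%) had an absolute r of at least 0.8 with it, and the median was 0.396. From 2 to 5 Mb away 0 of 49 such genes reached 0.8, and from 5 to 10 Mb away 0 of 39. Between a variable gene and another gene on different chromosomes, 5.1% of pairs reached 0.8, with a median of 0.364. Outside the block, 4 variable genes lay on chromosome 20. Of these, ENSRNOG00000050210 (155870 to 158859, minus strand), 5.37 Mb before the block, had r = 0.995 with ENSRNOG00000000830. Its CPM was 3.23, 1.08, 0.881 and 3.52 in the HFD rats and 2.55, 2.85, 0.986 and 1.08 in the CD rats, with the same 4 rats high. ENSRNOG00000000279, which lies 43.1 Mb after the block, had r = -0.926. The other 2, ENSRNOG00000000571 and ENSRNOG00000000596, had r of -0.686 and -0.570. All 4 were named after their values were seen.

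**Figure D2:**
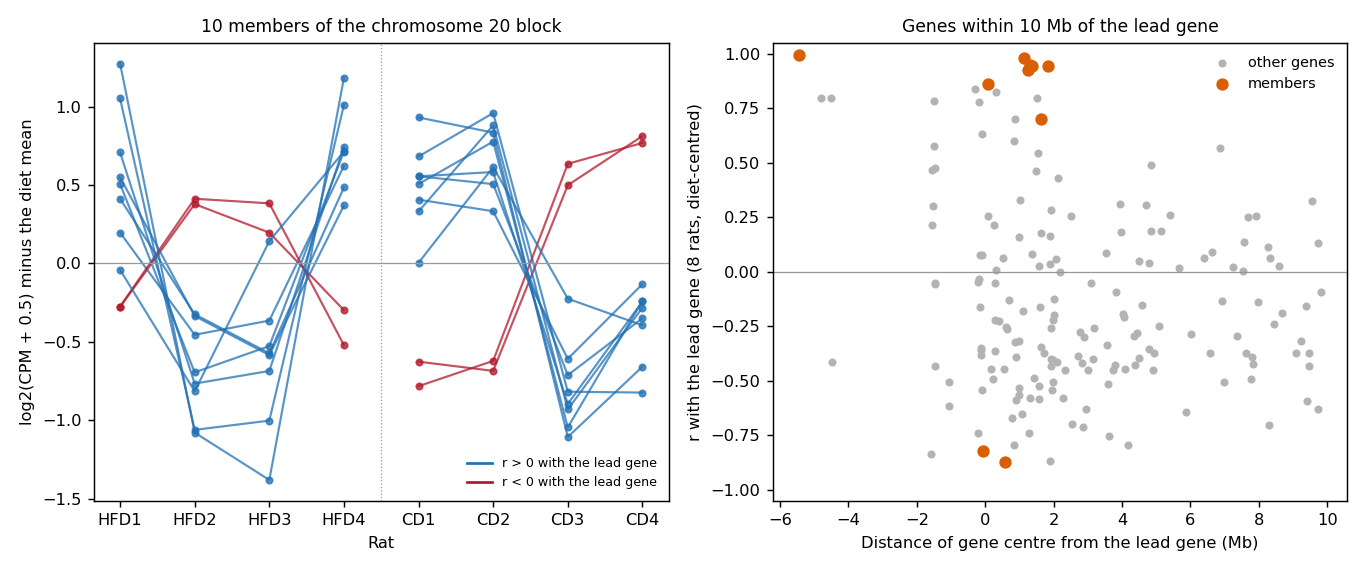
Left, log2(CPM + 0.5) minus the diet mean of the 10 variable genes in the chromosome 20 block in each rat, with 8 genes in blue that follow ENSRNOG00000000830 (the lead gene) and the pair in red that runs the other way. Right, diet-centred r with the lead gene over 8 rats against distance in Mb for all ranked genes within 10 Mb, where variable genes (orange) have r of at least 0.699 or at most -0.820 and most other genes (grey) lie in between.

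Smaller blocks were of different kinds. In 6 of the 16 blocks of 2 the pair had r of at least 0.8, and in 1 it had r of at most -0.8. For pairs of variable genes on different chromosomes, the share beyond these limits on either side was 9.39%. A block of 3 on chromosome 2, from 230202466 to 230278303, moved as one, with r between 0.902 and 0.985, and held every ranked gene of its span. By contrast, the block of 4 on chromosome 2, from 219196513 to 220278103, held unlike profiles. ENSRNOG00000017669 fell in HFD replicate 2 alone, whereas ENSRNOG00000019328 (219959694 to 219988834, minus strand) had 22.5, 6.96, 6.21 and 4.54 CPM on the HFD and 14.3, 6.45, 3.72 and 16.9 CPM on the CD. The other pair of that block, ENSRNOG00000019120 and ENSRNOG00000019470, had r = 0.971. None of the pairs reached an absolute r of 0.8 in the blocks of 3 on chromosome 9 (53112588 to 54038463) and chromosome 1 (86507668 to 86721255, and 244740774 to 246081110). The last of these also held every ranked gene of its span.

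Pairs of variable genes were then compared by the distance between them, as a description over pairs that share genes and libraries. The median absolute r was 0.903 for 16 pairs within 0.1 Mb, of which 87.5% reached 0.8. It was 0.784 from 0.1 to 0.5 Mb, 0.797 from 0.5 to 1 Mb and 0.815 from 1 to 2 Mb. At 2 to 5 Mb it was 0.668, at 5 to 10 Mb 0.567, and beyond 10 Mb on 1 chromosome 0.374. Variable genes on different chromosomes had 0.380, and 9.39% of their pairs reached 0.8. The values from 0.1 to 2 Mb rested on the chromosome 20 block. Without the pairs inside it they were 0.442, 0.534 and 0.503, from 11, 11 and 23 pairs, while the value within 0.1 Mb was 0.904 from 10 pairs. A variable gene and another gene had a median absolute r between 0.360 and 0.399 at any distance between genes whose spans did not overlap. Pairs of other genes had higher values, from 0.614 within 0.1 Mb to 0.572 between chromosomes, where 23.43% of these pairs reached 0.8.

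**Figure D3:**
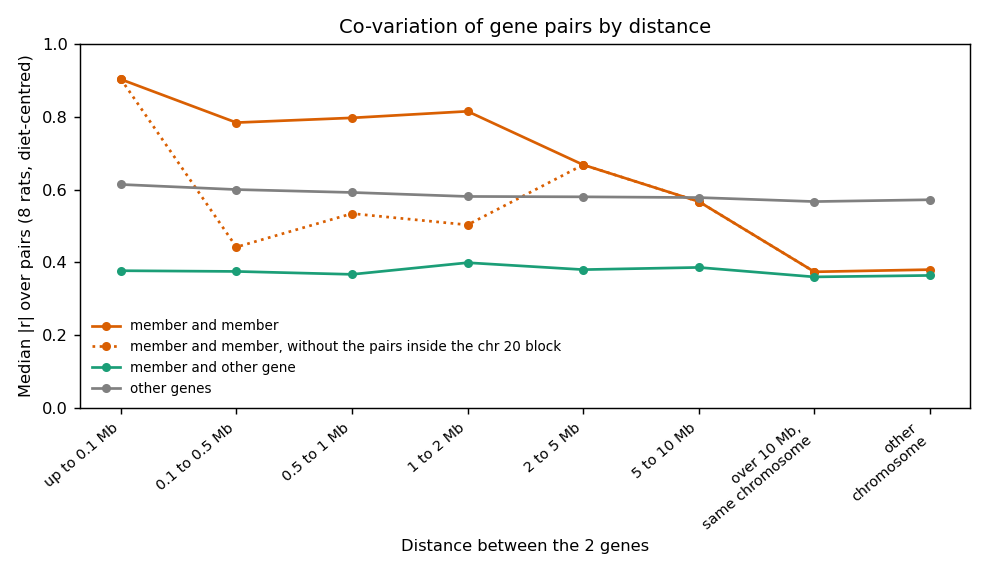
Median absolute diet-centred r over 8 rats against the distance between the genes of a pair, for pairs of variable genes (orange), pairs of variable genes without those inside the chromosome 20 block (dotted), a variable gene with another gene (green) and other genes (grey). The orange line falls from 0.903 within 0.1 Mb to 0.380 between chromosomes, whereas the green and grey lines stay within narrow ranges.

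The other genes shared a pattern that most variable genes did not. Over the 11294 genes, the first principal component of the deviations from the diet means held 53.4% of the variance, with CD replicate 1 at one end (-0.238) and CD replicate 4 at the other (0.301). These rats also had the lowest and the highest TMM factor, and the part of scaling in this component was not tested. An absolute r of at least 0.8 with this component was found for 48.5% of the 11294 genes and for 13 of the 200 variable genes (6.5%). Among the variable genes alone the variance was divided more evenly, with 31.4%, 22.5% and 19.9% on the first 3 components.

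Average linkage clustering on r, cut at a distance of 0.5, put 183 of the 200 variable genes into 7 clusters of 5 or more. Each cluster has its own set of high and low rats by the way it was built. Cluster 1 held 65 genes on 18 chromosomes. All 65 were above the diet mean in CD replicate 4 and 64 in HFD replicate 3, and none was in HFD replicate 4 or CD replicate 3. Cluster 2, of 33 genes on 14 chromosomes, was lowest in CD replicate 2, where none of the 33 was above the diet mean. Cluster 3 held 27 genes on 14 chromosomes, ENSRNOG00000037393 among them, and all 27 were below the diet mean in CD replicate 1, by a mean of 1.16 on the log2 scale. In cluster 4, all 20 genes were below it in HFD replicate 1, and in cluster 5 all 19 were below it in CD replicate 4, by a mean of 0.940. CD replicates 1 and 4, which stood apart over all genes, were the low rats of clusters 3 and 5. By mean deviation, CD replicate 4 was also the highest rat of clusters 1 (0.66), 2 (0.60), 3 (0.44) and 7 (1.63). CD replicate 1 was the highest of cluster 6 (0.67). The part of these 2 rats in the clusters was not tested. In clusters 1 to 5 the chromosome with the most genes held 11 of 65, 4 of 33, 5 of 27, 4 of 20 and 5 of 19.

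The remaining pair of clusters had most of their genes on 1 chromosome. Cluster 6 held 14 genes, 9 of them on chromosome 20, namely the 8 genes of the block that moved together and ENSRNOG00000050210. Cluster 7 held 5 genes, 3 of them the on/off genes of chromosome 13, and all 5 were below the diet mean in CD replicates 2 and 3.

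**Figure D4:**
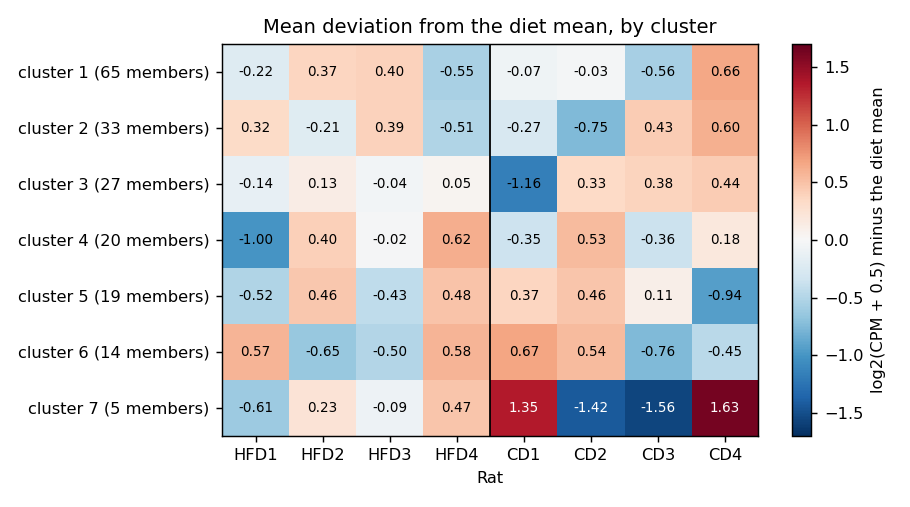
Mean of log2(CPM + 0.5) minus the diet mean over the genes of each cluster of 5 or more variable genes, in each of the 8 rats (red above, blue below the diet mean). Cluster 3 is lowest in CD replicate 1, at a mean of -1.16, and cluster 7 is low in CD replicates 2 and 3.

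Diet itself was a contrast the choice did not use. By edgeR's quasi-likelihood test with Benjamini-Hochberg adjustment, 0 of the 200 variable genes had an adjusted p under 0.05, and neither did any of the 19446 genes tested (0%). An unadjusted p under 0.05 was found for 9 variable genes, all lower on the HFD (4.5%), where the share of all genes was 2.52% lower and 1.21% higher. With a library left out, the share over all genes moved, and in most fits this count did too. It stayed 9 without HFD replicate 4, 8 of them lower (4.5%, against 3.6% of all genes in either direction). It also stayed 9 without CD replicate 2, 7 of them lower (4.5%, against 2.38%). Without HFD replicate 1 it was 5, all lower (2.5%, against 2.33% of all genes in either direction), and without CD replicate 1 it was 6, 5 of them lower (3%, against 2.12%). Without HFD replicate 2 it was 15, 14 of them lower (7.5%, against 2.33%), and without HFD replicate 3 it was 15, all lower (7.5%, against 4.46%). Without CD replicate 3 it was 26, all lower (13%, against 5.45%). Without CD replicate 4 it was 14, 9 of them lower (7%), which was below the 17.5% of all genes. All 4 HFD rats were below all 4 CD rats in 1 variable gene, against 0.797% of all genes, and above them in 0, against 0.992%. The median log2 fold change of the 200 was -0.15, with 136 of them (68%) below 0, against -0.01 and 51.2% over all genes tested. Variable genes moved together, 65 of them in cluster 1, so that these counts and shares are not of independent genes. Their difference from the shares over all genes was not tested. The spread that chose the genes also limits this contrast. The median standard error of the log2 fold change was 0.37 for the variable genes and 0.13 for the 11294.

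The smallest diet p among the variable genes belonged to ENSRNOG00000018991 (chromosome 3, 19799929 to 19826452, plus strand). It had 0.922, 0.999, 1.79 and 0.998 CPM in the HFD rats and 4.31, 2.95, 2.12 and 6.75 CPM in the CD rats, so that the diets did not overlap. Its log2 fold change was -1.85 (standard error 0.34, n = 4 each; edgeR adjusted p = 0.829). By DESeq2 with shrunken fold changes it was the 1 variable gene called, with an adjusted p of 0.00507, where 0.0309% of all genes were called. ENSRNOG00000019470, in the block of 4 on chromosome 2, had 1.36, 3.98, 3.12 and 2.53 CPM in the HFD rats and 5.66, 5.00, 2.31 and 6.89 CPM in the CD rats, and the diets overlapped. The difference was -0.94 on the log2 scale with an edgeR adjusted p of 0.829. The smallest p values in the other direction were those of ENSRNOG00000040166 and ENSRNOG00000010780, with log2 fold changes of 0.92 ± 0.46 and 0.60 ± 0.35 (standard error, edgeR adjusted p = 0.829 for both). The first became 1.51 without CD replicate 1, and the second 0.30 without HFD replicate 4 and 0.34 without CD replicate 1. ENSRNOG00000021560, on in 1 of 4 HFD rats and in all CD rats, had a log2 fold change of -2.13 (standard error 0.91, edgeR adjusted p = 0.829). Without HFD replicate 4 it was -5.59 with an edgeR adjusted p of 5.99e-05, so that this call rested on leaving out the 1 HFD rat in which the gene was on.

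Small RNA libraries gave a readout that the choice did not use. Piwi-interacting RNAs (piRNAs) are small RNAs of germ cells that guide Piwi proteins and are cut from long precursor transcripts. Of the 50830 piRNA entries listed at 1 place, some lay inside 5 of the 200 variable genes, and in 3 of these their summed counts averaged at least 10. ENSRNOG00000008922 (chromosome 5, 66657038 to 66681424, minus strand) held 37 entries, with 7866, 9192, 7866 and 7658 piRNA CPM in HFD libraries 1 to 4 and 7761, 6064, 7820 and 6986 in CD libraries 1 to 4. Its mRNA had 113, 35.9, 96.0 and 95.9 CPM on the HFD and 67.2, 123, 92.6 and 123 on the CD. HFD replicate 2 had the least mRNA and the most piRNA. The diet-centred r was -0.79 (two-sided exact permutation test within diet, p = 0.0347, adjusted p = 0.104 over 3 genes), and rho was -0.50 (exact permutation p = 0.295). Without the 2 rats farthest from the median mRNA level, r was -0.68.

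For ENSRNOG00000024928 (chromosome 2, 247998286 to 248016041, minus strand) r was 0.62 (exact permutation p = 0.231, adjusted p = 0.346). Its rho was 0 (exact permutation p = 1), and r was -0.02 without the 2 rats farthest from the median, so that the r rested on those rats, CD replicates 1 and 4. For ENSRNOG00000005592 (chromosome 13, 80863780 to 80964493, minus strand) r was 0.17 and rho 0 (exact permutation p = 0.660 and 1), and r was 0.73 without the 2 farthest rats, CD replicates 2 and 4. None of the 3 genes passed the adjusted threshold. The piRNA counts cover reads of 1 orientation only.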

How the data were processed

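The deposited values were raw counts per feature. According to the study's methods and the file headers, the authors aligned mRNA reads to rn5 with STAR 2.3.0 and counted those with a mapping quality of at least 1 on Ensembl genes with featureCounts 1.4.6, set to the reverse strand, although the TruSeq v2 kit named in the labels does not mark strand. Reads of genes that overlap on opposite strands can therefore not be told apart, which touches 7 of the 200 genes. Small RNA reads were trimmed with Trimmomatic and aligned to rn5 with Butter by the authors, and the deposited piRNA counts were again made with featureCounts. Repeat and miRNA counts were not used. The small RNA library of CD replicate 4 carries another library number in its column name, and was assigned by the sample that the file is recorded under.

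CPM used column totals. Distances were taken between gene spans in rn5. Correlations were Pearson's on log2(CPM + 0.5) minus the diet mean. The diet test was fitted on the 19446 genes that averaged 1 count or more, in R 4.3.3 with edgeR 4.0.16 (TMM), and DESeq2 1.42.0 was the alternative. The standard error was the log2 fold change divided by the root of F. Fits were tested on simulated data. Permutation tests used all 576 pairings within diet (smallest p 0.00174) and matched mRNA and small RNA libraries by diet and replicate number, which the sources used here do not state to be the same rat. No label places the 4 rats of a diet in separate litters, so that p-values measure the spread between these samples.

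Genes were named by a rule: the 10 with the largest SD, the 8 widest gaps, up to 5 in each of the 5 largest blocks, 3 on either side of the limit, the smallest diet p (limited to 2 a direction), and those tested with piRNAs. Others are marked in the text. The members, rule and lists were chosen with earlier results of these data known.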

Additional observations from a re-analysis of the deposited data

Results flagged for a closer look

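Among 41 variable genes named or examined for their spread, block or diet difference, the highest or lowest of 4 rats stood apart by Dixon's criterion (gap over range above 0.829) in 10 of 82 groups (12.2%), where chance flags about 1 group in 20. The genes were chosen for their spread, and the share is a description. HFD replicate 1 was highest in ENSRNOG00000017118 (6.35 CPM), ENSRNOG00000008412 (8.94 CPM) and ENSRNOG00000019328 (22.5 CPM), and lowest in ENSRNOG00000010204 (0.256 CPM). CD replicate 1 was highest in ENSRNOG00000017118 (9.31 CPM) and lowest in ENSRNOG00000045545 (0.187 CPM). HFD replicate 3 was highest in ENSRNOG00000002907 (31.3 CPM) and ENSRNOG00000018991 (1.79 CPM). HFD replicate 4 was highest in ENSRNOG00000021560 (4.86 CPM) and HFD replicate 2 lowest in ENSRNOG00000017669 (2.13 CPM).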

How the results depend on the processing

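The choice of genes depended on how low counts were weighted. Of the 200, 168 were chosen again with TMM scaling and 136 with a mean count of at least 100, but 125 with log2(CPM + 2) and 126 with DESeq2 VST values. Leaving out each library in turn kept between 146 and 174. On/off profiles numbered 11 with TMM scaling and 18 at a gap of 1.5, against 13. They fell to 4 at a gap of 3 and to 4 with log2(CPM + 2), in both cases ENSRNOG00000037393, ENSRNOG00000002907, ENSRNOG00000048096 and ENSRNOG00000032825. Members in blocks numbered 43 at 500000 bases and 83 at 2000000 bases, against 58. Leaving out pairs with overlapping exons could not change the 58, since no variable genes overlap in their exons. With TMM scaling, chosen after seeing the data, 189 of the 200 lay in clusters of 5 or more, against 183. These clusters numbered 10, against 7, and the largest held 69 genes, against 65. Whether they held the same genes as the 7 described was not compared. For diet, DESeq2 called 6 genes with shrinkage and 7 without, 1 of them a variable gene in each. With edgeR, calls numbered between 0 and 1 with each library left out, and the call was the same variable gene, ENSRNOG00000021560, without HFD replicate 4. The other edgeR settings called 0. With the replicate block, 0 genes and 0 variable genes were called. In that fit 9 variable genes had an unadjusted p under 0.05 (4.5%, against 1.66% of all genes in either direction). Of these 9, 6 were lower on the HFD, where all 9 of the main fit were. The deviations of same-numbered libraries had r = -0.335, 0.042, -0.273 and -0.559, against a mean of 0.094 for libraries of different numbers. The labels do not say what a shared number means, and what these libraries share was not tested. The piRNA relation passed in 0 genes under every setting, including those that left out 1 rat.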
